A study of Homo sapiens with 6 samples.

Results

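Accessible chromatin was examined at 10 genes of the Polycomb complexes, EZH2, EED, SUZ12, JARID2, RNF2, PHC1, PHC2, PHC3, CBX2 and BMI1, out of 20037 protein-coding genes in the RefSeq table. The members were all ATAC-seq summits inside these genes and within 20 kb of either end. A summit is the position of strongest signal in a peak. This gave 256 of the 356720 summits of the series. Summits lying within 250 bp of a centre were treated as 1 locus, and the windows held 80 of 123131 loci. The genes were chosen by name with the presence of summits under each hairpin already known, including a site inside PHC2 that is described here. All comparisons are therefore descriptions, each set beside the share found over all loci, starts or genes, and no test was made. An exact permutation test of 4 libraries against 2 has 15 assignments and could not give a two-sided p below 0.133.

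The cells were H1, a human embryonic stem cell line that grows in the primed pluripotent state. All cells had been infected with a lentivirus for a short hairpin RNA and selected with puromycin, controls included. There were 2 libraries each for shHNRNPU #1 and shHNRNPU #2, hairpins against the nuclear RNA-binding protein HNRNPU, and 2 for shLUC, a hairpin against luciferase. All came from a single cell line, and the labels do not say whether the repeats were separate cultures. Each library was made from nuclei of 50000 cells.

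The libraries held from 52168 to 63519 summits. Their read depth is unknown, and where a library has no summit, all that is known is that no peak passed its threshold there. Summits give no measure of the knockdown; the HNRNPU window held 5, 6, 5 and 4 summits with shHNRNPU and 4 and 3 with shLUC. The labelled cell type was checked on a few genes, with a summit within 1000 bp of a transcription start as the measure. Of 7 pluripotency genes, 3 (LIN28B, DPPA4 and ZSCAN10) had one in all 6 libraries, DNMT3B had one in 4, SOX2 in 3, NANOG in 2 and POU5F1 in 1. Among genes of differentiated cells, ALB, PTPRC and HBB had none in any library, TNNT2 had one in 3 libraries, and MYOD1 had one in all 6. Some of these markers differed with the groups and others did not. The NANOG summits were those of both shLUC libraries, and the TNNT2 summits were all of shHNRNPU libraries. The score percentile at DPPA4 was lower in all 4 shHNRNPU libraries, as at 7.03% of protein-coding genes called in every library. Its means were 72.3 ± 10.8 (SD, n = 4) and 85.5 ± 3.05 (SD, n = 2). In contrast, the POU5F1 summit was that of shHNRNPU #1 repeat 2. DNMT3B lacked one in shHNRNPU #2 repeat 1 and shLUC repeat 2, and the groups overlapped at LIN28B, ZSCAN10 and MYOD1. The part of such differences between the libraries in the values at the Polycomb genes was not tested.

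Polycomb proteins keep developmental genes silent in stem cells and work in a pair of complexes. PRC2 methylates a lysine in the tail of histone H3: EZH2 is its catalytic subunit, EED binds the methylated tail and stimulates it, SUZ12 holds the complex together, and JARID2 is an accessory subunit that helps to recruit it. PRC1 places ubiquitin on histone H2A: RNF2 is its catalytic subunit, BMI1 is one of the partners that activate it, CBX2 reads the methylated tail and compacts chromatin, and PHC1, PHC2 and PHC3 polymerise and cluster the complex.

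The RefSeq promoter table of GRCh38.p14 matched 9 of the 10 genes and gave 14 transcription starts, which are numbered here in the order of that table; CBX2 was the gene without an entry. The 250 bases before 7 of these starts are shown because the summits described below lie on or next to them. They run 5′ to 3′ in the direction of the gene, and capitals mark letters that match a searched motif. The first is EZH2 start 1 at chr7:148884292-148884541, minus strand, a start with a strong summit in every library. JARID2 start 1 at chr6:15245819-15246068 and JARID2 start 2 at chr6:15248605-15248854, plus strand, stood higher with shHNRNPU. PHC1 start 2 at chr12:8914259-8914508, plus strand, is one where libraries placed the summit differently. PHC2 start 1 at chr1:33431096-33431345 and PHC2 start 2 at chr1:33349900-33350149, minus strand, are the strongest start of the list and the start nearest to the site gained in this gene. BMI1 start 1 at chr10:22320849-22321098, plus strand, carried weak summits.
EZH2 start 1: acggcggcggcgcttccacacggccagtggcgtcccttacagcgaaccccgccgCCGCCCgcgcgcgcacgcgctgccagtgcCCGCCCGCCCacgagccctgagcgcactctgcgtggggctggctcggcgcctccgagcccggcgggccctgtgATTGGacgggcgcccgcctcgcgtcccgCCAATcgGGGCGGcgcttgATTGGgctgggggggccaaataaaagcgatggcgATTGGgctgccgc
JARID2 start 1: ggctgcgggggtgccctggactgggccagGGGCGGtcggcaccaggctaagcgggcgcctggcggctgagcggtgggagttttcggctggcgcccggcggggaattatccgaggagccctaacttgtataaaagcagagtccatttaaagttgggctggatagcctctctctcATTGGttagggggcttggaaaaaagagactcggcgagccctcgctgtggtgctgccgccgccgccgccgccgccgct
JARID2 start 2: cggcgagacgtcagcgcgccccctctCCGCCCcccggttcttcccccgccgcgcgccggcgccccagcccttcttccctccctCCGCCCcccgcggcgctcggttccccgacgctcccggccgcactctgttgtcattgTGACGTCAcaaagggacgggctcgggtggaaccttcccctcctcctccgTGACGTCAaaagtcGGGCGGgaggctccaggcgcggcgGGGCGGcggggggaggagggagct
PHC1 start 2: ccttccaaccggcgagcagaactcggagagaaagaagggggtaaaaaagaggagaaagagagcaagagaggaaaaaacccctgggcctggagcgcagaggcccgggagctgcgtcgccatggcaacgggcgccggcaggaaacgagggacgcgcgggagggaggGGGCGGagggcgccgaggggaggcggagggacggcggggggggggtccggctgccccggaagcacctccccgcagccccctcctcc
PHC2 start 1: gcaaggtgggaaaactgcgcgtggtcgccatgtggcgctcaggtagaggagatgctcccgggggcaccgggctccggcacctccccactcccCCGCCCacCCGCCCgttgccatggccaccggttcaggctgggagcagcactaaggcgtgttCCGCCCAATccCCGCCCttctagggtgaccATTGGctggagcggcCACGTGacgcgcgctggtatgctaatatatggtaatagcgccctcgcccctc
PHC2 start 2: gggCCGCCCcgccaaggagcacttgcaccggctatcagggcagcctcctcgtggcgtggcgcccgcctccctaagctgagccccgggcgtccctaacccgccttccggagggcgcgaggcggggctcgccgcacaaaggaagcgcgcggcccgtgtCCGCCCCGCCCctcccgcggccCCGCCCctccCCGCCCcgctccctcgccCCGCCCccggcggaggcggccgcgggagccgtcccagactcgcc
BMI1 start 1: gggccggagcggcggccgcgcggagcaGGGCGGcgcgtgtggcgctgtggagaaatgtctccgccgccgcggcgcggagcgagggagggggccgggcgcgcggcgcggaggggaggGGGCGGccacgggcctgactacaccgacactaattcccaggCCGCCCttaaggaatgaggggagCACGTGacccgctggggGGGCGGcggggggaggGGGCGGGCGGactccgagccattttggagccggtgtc

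These promoters are rich in G and C. The median over the 14 was 73.6% G or C and 34 CpG, beside 58.0% and 11 CpG over all 35116 promoters of the table. The poorest was PHC1 start 1 with 37.6% and the richest BMI1 start 2 with 91.6%. On either strand, the GC box GGGCGG was in 12 of the 14, beside 42.6% of all promoters. The CCAAT box, searched as CCAAT, was in 6 of the 14, beside 32.0%. The E-box CACGTG was in 3, those of PHC2 start 1, PHC3 and BMI1 start 1, beside 6.35%. The cyclic AMP element TGACGTCA was found at JARID2 start 2, beside 1.65% of all promoters, the E2F form TTTCCCGC at SUZ12, beside 1.39%, and the NRF1 palindrome at PHC3, beside 1.03%. No window held the E2F form TTTGGCGC, the ETS motif CCGGAAGT or the octamer ATTTGCAT, which were in 0.55%, 3.42% and 1.63% of all promoters. These are matches of letters only.

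All 10 genes had a summit within 1000 bp of a start (for CBX2, of a gene end) in all 6 libraries, which held for 65.5% of protein-coding genes. The strength of a summit was taken as the percentile of its score within its own library, since scores were not normalised between libraries. The median over the 10 genes of the mean start percentile was 86.2 with shHNRNPU and 84.0 with shLUC, beside 86.0 and 84.6 over all protein-coding genes called in every library.

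The PRC2 core subunits had strong summits with no separation of the groups. At EZH2 (chromosome 7, 148807383 to 148884291, minus strand) the strongest start summit had percentiles of 87.1 and 85.5 with shHNRNPU #1, 86.6 and 94.5 with shHNRNPU #2, and 92.4 and 89.4 with shLUC. The means were 88.4 ± 4.09 (SD, n = 4) for shHNRNPU and 90.9 ± 2.16 (SD, n = 2) for shLUC. The shLUC values lay among the shHNRNPU values.

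EED (chromosome 11, 86244753 to 86287615, plus strand) stood at 92.6, 87.8, 89.9 and 85.8 in the 4 shHNRNPU libraries and at 90.5 and 86.7 in the shLUC libraries. The groups overlapped. The summit itself took one of 2 places. Relative to the start, with upstream negative, it lay at 403, 367, -59 and 367 bp with shHNRNPU and at 409 and -129 bp with shLUC. Each group used both places.

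SUZ12 (chromosome 17, 31937007 to 32001038, plus strand) stood at 89.0, 88.1, 70.6 and 85.9 with shHNRNPU and at 69.5 and 87.4 with shLUC. A low library was present in each group. SUZ12 has a partial copy, the pseudogene SUZ12P1 on the same chromosome, which had a start summit in 5 libraries, and how reads of the copies were divided is not known. The SUZ12 window held 2 summits in every library, one at its own start and one beside the neighbouring gene LRRC37B.

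JARID2 was the one gene whose strongest start summit separated the groups. It lies on chromosome 6, from 15246069 to 15522042 on the plus strand. At its first start the strongest summit had percentiles of 93.1 and 93.2 with shHNRNPU #1, 92.3 and 85.8 with shHNRNPU #2, and 74.6 and 85.5 with shLUC. The summit of shLUC repeat 1 lay at -537 bp from the start and formed a locus of its own. Those of the other libraries lay at -205 or -231 bp. Every shHNRNPU value was above every shLUC value, the closest pair by less than a percentile point. The mean was 91.1 ± 3.57 (SD, n = 4) against 80.1 ± 7.73 (SD, n = 2), a difference of 11.02 points, which was 5.55 points without shLUC replicate 1 and 16.5 points without shLUC replicate 2.

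At the second JARID2 start, whose promoter holds the cyclic AMP element shown above, the percentiles were 78.9, 82.1, 83.7 and 73.8 with shHNRNPU and 52.3 and 55.7 with shLUC. The groups were further apart here than at the first start. The means were 79.6 ± 4.38 (SD, n = 4) and 54.0 ± 2.39 (SD, n = 2), a difference of 25.6 points. It was 39.8 points once scores under 5 were left out and percentiles were taken anew in the shortened lists. That step by itself stretches the scale, so the larger value is no sign of a larger difference. The deposited scores showed the same order, from 16.4 to 20.7 with shHNRNPU and at 8.1 and 8.2 with shLUC. The summit lay between -295 and 80 bp from the start, and the noncoding genes JARID2-DT and JARID2-AS1 lie beside these starts, which an assay without strand cannot separate from JARID2.

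Among the PRC1 genes, RNF2 (chromosome 1, 185045558 to 185102603, plus strand) had start percentiles of 88.6, 82.9, 84.3 and 80.6 with shHNRNPU and 87.9 and 86.4 with shLUC. The groups overlapped, and the summits lay within 50 bp of each other, from -282 to -232 bp. PHC3 (chromosome 3, 170087584 to 170181733, minus strand) stood at 84.5, 84.9, 96.0 and 88.0 with shHNRNPU and at 83.7 and 90.4 with shLUC, also overlapping. CBX2 (chromosome 17, 79777311 to 79787983), for which no strand was at hand, stood at 83.6, 89.9, 79.2 and 82.2 with shHNRNPU and at 81.1 and 80.8 with shLUC. The shLUC values again lay among the shHNRNPU values.

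PHC2 (chromosome 1, 33323626 to 33431095, minus strand) had the strongest start of the list. At start 1 the percentiles were 98.4, 99.3, 98.5 and 97.7 with shHNRNPU and 99.1 and 98.4 with shLUC, and all 6 summits lay within 36 bp of each other. The groups could not be told apart there. At start 2, inside the gene, the percentiles were 75.8, 81.4, 72.4 and 76.1 with shHNRNPU and 51.6 and 62.9 with shLUC. All 4 shHNRNPU libraries stood above both shLUC libraries, with means of 76.4 ± 3.71 (SD, n = 4) and 57.2 ± 7.97 (SD, n = 2). The difference was 19.2 points, and it was 29.8 points on the stretched scale without scores under 5. The antisense gene PHC2-AS1 lies just upstream of this start.

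PHC1 (chromosome 12, 8913843 to 8941467, plus strand) varied in where its summit lay. Relative to start 2 it lay at 341 and 317 bp with shHNRNPU #1, at 18 and -221 bp with shHNRNPU #2, and at -282 and -205 bp with shLUC. The spread over libraries was 623 bp, the second widest of the list after BMI1 with 869 bp. Over all protein-coding genes called in every library, the median spread was 125 bp. Its percentiles were 71.3, 66.3, 71.0 and 72.2 with shHNRNPU and 44.4 and 71.6 with shLUC, so that 1 shLUC library was low and the other was not. PHC1 also has a pseudogene, PHC1P1, on the same chromosome, with a start summit in 5 libraries.

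BMI1 (chromosome 10, 22321099 to 22331706, plus strand) had the weakest start of the list. The strongest summit near its first start stood at 38.9, 54.4, 38.5 and 22.3 with shHNRNPU and at 30.5 and 20.9 with shLUC, and the groups overlapped. The read-through gene COMMD3-BMI1 covers BMI1 and starts upstream of it.

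**Figure D1:**
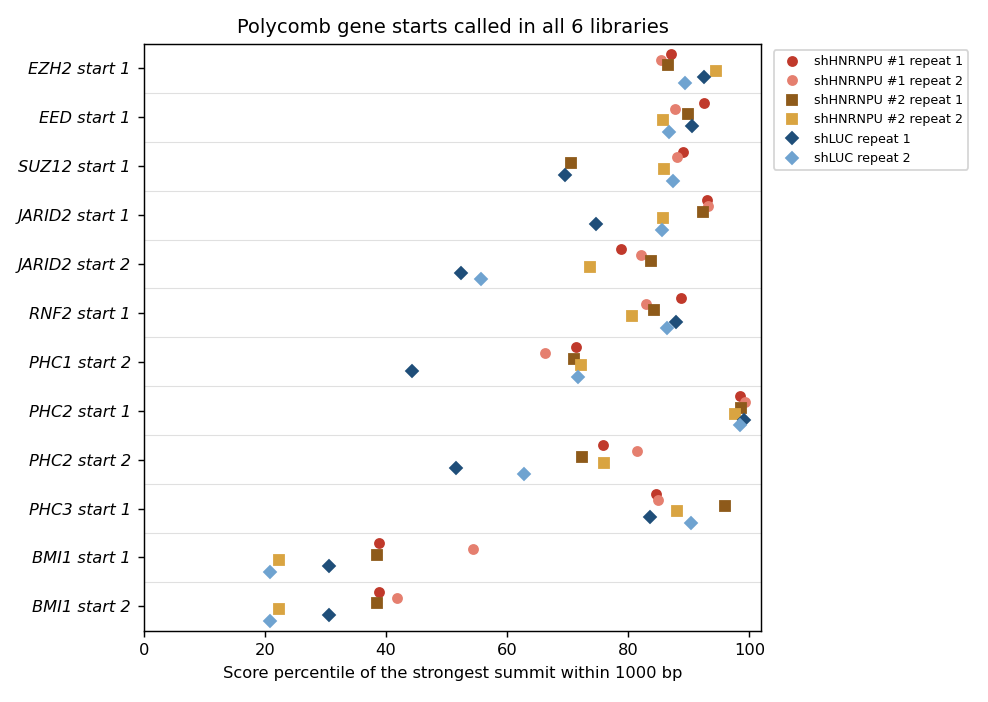
Score percentile within the library (x axis, 0 to 100) of the strongest summit within 1000 bp of each Polycomb gene start called in all 6 libraries (y axis, 12 starts); each point is 1 library, coloured by hairpin and repeat, with no error bars. At JARID2 start 1, JARID2 start 2 and PHC2 start 2 all 4 shHNRNPU points stand right of both shLUC points, and at the other 9 starts the groups overlap.

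Of the 14 starts, 12 had a summit in all 6 libraries. The percentile was higher in all 4 shHNRNPU libraries at 3 of these 12 (both JARID2 starts and PHC2 start 2) and lower at none. Over all 16878 starts of the table called in every library, 15.2% were higher and 7.23% were lower in this sense, so higher starts outnumbered lower ones over the whole series. The median difference was 7.30 points over the 12 starts and 0.937 points over all. Some of the 12 share summits, since the starts of 1 gene can lie within 1000 bp of each other. These single starts were looked at after their values were seen. With the strongest summit of each gene in place of single starts, 1 of 10 genes (JARID2) was higher and none lower, beside 15.1% and 7.03% of protein-coding genes. Taken this way, by gene, the median difference was 2.05 points over the 10 genes and 0.878 points over protein-coding genes called in every library. By the start locus, the locus nearest to a start, 5 genes could be compared (EZH2, SUZ12, RNF2, PHC2 and PHC3), and the groups overlapped at all 5, beside 13.7% of genes higher and 7.72% lower.

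**Figure D2:**
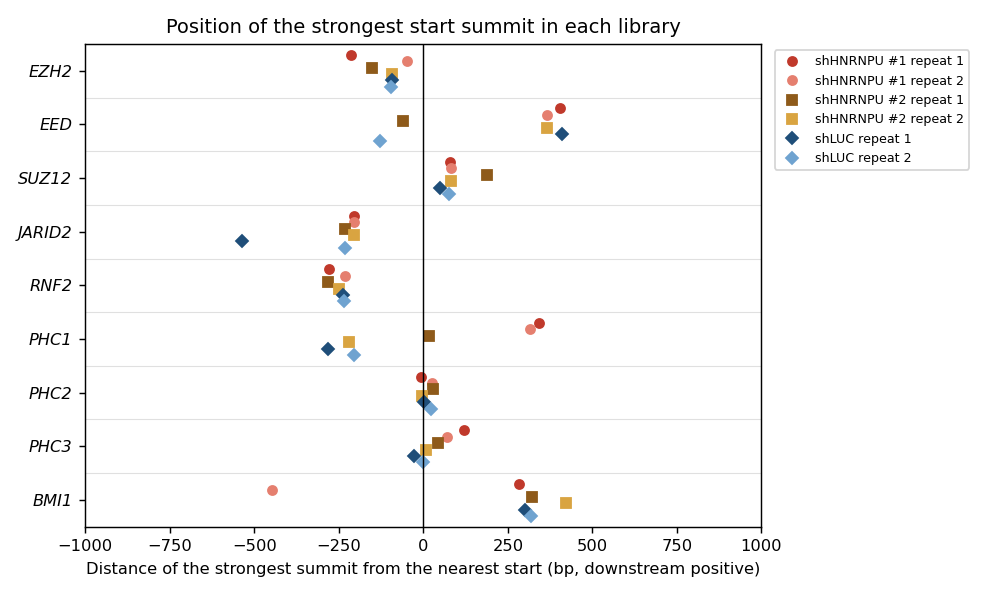
Distance in bp of each library's strongest start summit from the nearest start (x axis, downstream positive) for the 9 genes with known starts (y axis); each point is 1 library. PHC2 summits fall within 36 bp and PHC3 summits within 148 bp of each other, on both sides of the start. PHC1, EED and BMI1 summits are split more widely between the sides of the start.

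The next question was which loci of the windows were called in one group and not in the other. Lost loci were those present in both shLUC libraries and absent from the 4 shHNRNPU libraries, and gained loci those present in the 4 shHNRNPU libraries and absent from both of shLUC. Of the 28 loci held by both shLUC libraries, 0 were lost, beside 5.68% of such loci over the series. Of the 24 loci held by all 4 shHNRNPU libraries, 1 was gained, beside 3.59%. A window with a gained locus was found for 5.87% of protein-coding genes, and one with a lost locus for 8.21%. With a library left out, 4 loci were lost and 6 gained without shLUC replicate 2, and 2 and 2 without shLUC replicate 1. Without one of the shHNRNPU libraries, 0 or 1 locus was lost and 1 to 3 were gained. Fewer libraries must then follow the pattern, which by itself lets more loci be called. No share over the series is given for these settings, so the rise cannot be read as a result.

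The gained locus lies within PHC2, at position 33342375 of chromosome 1, 7524 bp downstream of start 2. Its percentiles were 69.1 and 73.4 with shHNRNPU #1 and 72.5 and 75.9 with shHNRNPU #2, with deposited scores of 13.1, 14.6, 12.5 and 17.6. The 4 summits lay within 77 bp of each other. No shLUC summit was called there, and the nearest one was 7358 bp away. This site is one of the values that led to the list, so it is given as a description. Exons were not in the tables used here, so whether it is exonic or intronic is not given.

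**Figure D3:**
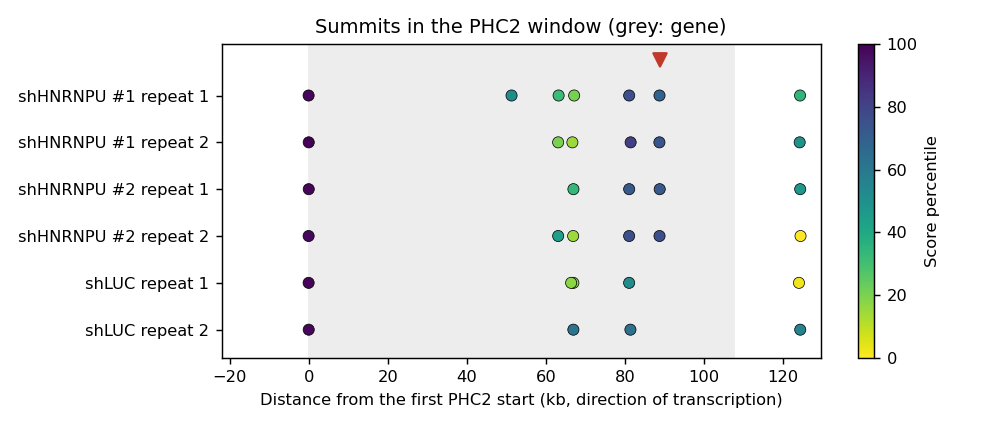
Summits in the PHC2 window in each library (rows) by distance in kb from PHC2 start 1 in the direction of transcription (x axis), coloured by score percentile, with the gene in grey. The red triangle marks the locus called in the 4 shHNRNPU libraries and in neither shLUC library.

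Each hairpin was then set against shLUC on its own. The comparisons share the shLUC libraries and are given side by side. With shHNRNPU #1, 2 of 28 loci were lost and 5 of 37 were gained, beside 10.4% and 10.5% over the series. With shHNRNPU #2, 0 of 28 were lost and 4 of 31 were gained, beside 11.9% and 7.79%. At PHC1 start 2 a locus at -221 bp was lost and a locus at 341 bp was gained with shHNRNPU #1. This pair follows from the summit positions given above. The strongest locus gained with shHNRNPU #2 and not with shHNRNPU #1 was at JARID2 start 2, 80 bp downstream, with a shLUC summit 372 bp from it. It was also held by shHNRNPU #1 repeat 1. The summits of that library and of shHNRNPU #2 repeat 2 counted as well in the locus at -277 bp, which both shLUC libraries held. This call too thus follows from where the centres lay. The other locus lost with shHNRNPU #1 lay 9229 bp downstream of BMI1, at percentiles of 8.98 and 28.2 with shLUC. A summit of shHNRNPU #2 repeat 1 lay 229 bp from its centre at 22340935. Both shHNRNPU #1 libraries had summits just beyond the 250 bp limit. That of repeat 1 lay at 22340565 (percentile 78.4), and those of repeat 2 lay at 22340564 (66.6) and 22341240 (29.5). The call of this locus as lost thus also depended on where its centre lay.

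Other loci were held by some libraries of each group. All 4 shHNRNPU libraries and 1 shLUC library held 7 of the 80 loci, or 8.75%, beside 2.93% of all loci. In 6 of these 7 the shLUC library was repeat 2. Over the series the pattern made up 1.44% of loci with repeat 1 and 1.49% with repeat 2. At some of these loci the shLUC library counted as lacking had a summit just beyond the 250 bp limit. For repeat 1 these lay at 15245532 (JARID2, centre 15245864), 33307118 (PHC2, centre 33306795) and 22340935 (BMI1, centre 22340565). For repeat 2 the summit lay at 22334147 (BMI1, centre 22334461). These calls thus depended on where the centres lay, and the other loci had no such summit so close. How often this holds over the series was not tested. Both shLUC libraries held 6 loci with 3 shHNRNPU libraries, 5 with 2 and 1 with 1, which is 7.5%, 6.25% and 1.25% of the 80 beside 5.21%, 3.47% and 2.61% of all loci. Patterns in which all libraries of one group and part of the other held the locus were thus above their share over the series in either direction, apart from the last. In the windows shLUC repeat 1 had 37 summits, the fewest of all libraries, and its part in these patterns was not tested.

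The number of summits per library in the 10 windows was 48 and 46 with shHNRNPU #1, 41 and 41 with shHNRNPU #2, and 37 and 43 with shLUC. The groups overlapped, with 44.0 ± 3.56 (SD, n = 4) and 40.0 ± 4.24 (SD, n = 2). The difference of 4.0 summits was 1.0 without shLUC replicate 1 and 7.0 without shLUC replicate 2. As a share of the library the windows held 0.0702% to 0.0813% of summits with shHNRNPU and 0.0595% and 0.0701% with shLUC. The highest shLUC library was thus just below the lowest shHNRNPU library.

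By gene, the count of summits separated the groups at JARID2 alone, where it was higher in the 4 shHNRNPU libraries; 3.54% of protein-coding genes were higher and 3.92% lower in this sense. JARID2 had 10 and 10 summits with shHNRNPU #1, 7 and 8 with shHNRNPU #2, and 5 and 5 with shLUC. The means were 8.75 ± 1.5 (SD, n = 4) and 5.0 ± 0 (SD, n = 2). The excess lay in summits of low score. Those with a score of at least 5 numbered 4, 5, 3 and 5 with shHNRNPU and 4 and 5 with shLUC, and the weaker ones 6, 5, 4 and 3 against 1 and 0. Among the stronger summits the difference was thus -0.25. Of the 20 JARID2 loci, 11 were held by a single shHNRNPU library and 1 by a single shLUC library. Such loci made up 22.6% and 15.4% of all loci of the series, and there were 4 shHNRNPU libraries to 2 of shLUC.

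**Figure D4:**
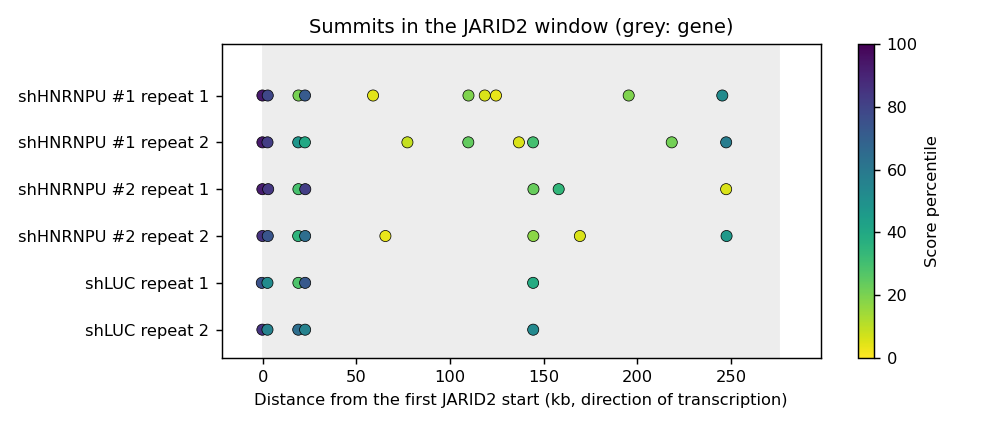
Summits in the JARID2 window in each library (rows) by distance in kb from JARID2 start 1 (x axis), coloured by score percentile, with the gene in grey. The summits at the starts and at the next loci downstream recur between libraries, while 11 of the 20 loci were held by a single shHNRNPU library.

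At the other genes the counts overlapped. PHC2 had 7, 6, 5 and 6 summits with shHNRNPU and 5 and 4 with shLUC, and BMI1 had 9, 10, 9 and 9 against 6 and 10. CBX2 had 6, 4, 4 and 3 against 3 and 4, and PHC3 had 2, 3, 3 and 1 against 4 and 3. EZH2, EED, RNF2 and PHC1 had from 1 to 5 summits in every library.

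**Figure D5:**
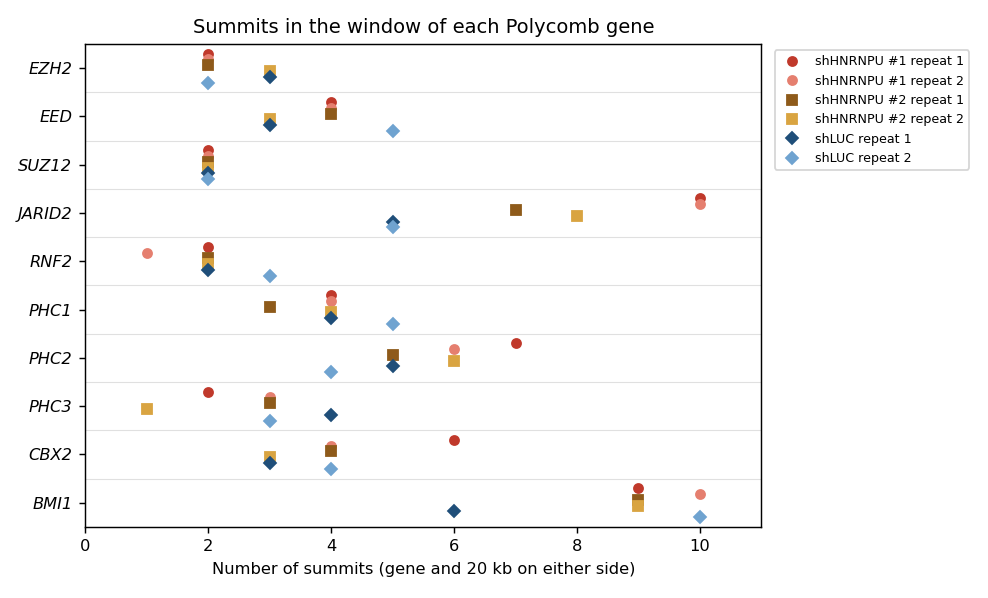
Number of summits in the window of each Polycomb gene, the gene and 20 kb on either side (x axis), for each of the 10 genes (y axis); each point is 1 library. JARID2 shows 7 to 10 summits in the shHNRNPU libraries and 5 in each shLUC library, and the other genes overlap.

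In all, 16 of the 80 loci (20%) were held by all 6 libraries, beside 20.7% of all loci, and 21 (26.3%) by a single library, beside 38.02%. The PRC2 genes accounted for 33 loci, 6 of them in all libraries, and the PRC1 genes for 47, with 10 in all libraries. Among the 16, the percentile was higher in all 4 shHNRNPU libraries at 2 and lower at 1, beside 10.9% and 13.9% of all loci held by every library.

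One of the 2, named after its values were seen, lay 1871 bp upstream of PHC1 start 1, at position 8911972 of chromosome 12. It stood at 51.4, 62.7, 68.3 and 53.4 with shHNRNPU and at 39.5 and 36.6 with shLUC. Its means were 58.9 ± 7.93 (SD, n = 4) and 38.04 ± 2.00 (SD, n = 2), a difference of 20.9 points. On the stretched scale without scores under 5 the difference was 34.0 points. The other lay inside BMI1 at position 22325740 of chromosome 10, 4641 bp downstream of start 1. It stood at 85.9, 82.6, 79.95 and 76.1 with shHNRNPU and at 66.4 and 72.8 with shLUC, with means of 81.1 ± 4.13 (SD, n = 4) and 69.6 ± 4.48 (SD, n = 2). The difference of 11.5 points was 18.3 points on the stretched scale without scores under 5. This internal BMI1 site was thus far stronger in every library than the summit at the BMI1 start.

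The lower one was not at a Polycomb gene start. It lay in the EED window 43 bp before the start of HIKESHI, a nuclear import factor, and stood at 90.3, 92.9, 90.7 and 93.5 with shHNRNPU and at 95.1 and 94.8 with shLUC. Neighbouring genes also gave other strong loci of the windows. In the PHC1 window the locus between M6PR and KLRG1 had means of 96.3 ± 1.37 (SD, n = 4) and 94.4 ± 2.58 (SD, n = 2). In the CBX2 window the locus 276 bp from an end of CBX8, another reader subunit of PRC1, had means of 95.2 ± 2.07 (SD, n = 4) and 91.5 ± 3.79 (SD, n = 2). Both pairs overlapped.

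Other loci held by all 6 libraries were weaker. Within JARID2 the strongest lay 22676 bp from start 1, with means of 64.5 ± 17.7 (SD, n = 4) and 64.3 ± 11.5 (SD, n = 2). Within PHC2 one lay 66937 bp downstream of start 1, with means of 20.9 ± 8.63 (SD, n = 4) and 39.7 ± 31.4 (SD, n = 2). In the EZH2 window one lay inside the neighbouring gene CUL1, with means of 33.5 ± 19.3 (SD, n = 4) and 47.4 ± 12.5 (SD, n = 2). The groups overlapped at each.

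BMI1 had the densest window, with 15 loci in 50.6 kb, or 29.6 per 100 kb. The median was 6.56 per 100 kb over the 10 genes and 6.16 over all protein-coding genes. SUZ12 was at the other end with 2.88 per 100 kb. In the BMI1 window no library held more than 10 summits, and several neighbouring loci shared summits. That window also holds the starts of COMMD3 and SPAG6. The farthest locus inside the 20 kb limit of the windows was 16831 bp from PHC2, held by 5 libraries at a mean percentile of 37.2. The nearest ones outside were 21193 bp from EZH2, held by 1 library at 46.1, 22291 bp from CBX2, held by 3 at 69.7, and 23014 bp from PHC1, held by all 6 at 59.9. Windows of 50 kb held 123 loci.

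A list of 33 further Polycomb genes was described in the same way. Of these, 27 had a start summit in all 6 libraries. The start percentile was higher in all 4 shHNRNPU libraries at 8 (RBBP4, PHF19, LCOR, CBX7, SCMH1, SCML2, MGA and BAP1) and lower at none, beside the 15.1% and 7.03% of protein-coding genes given above. The difference was 18.3 points at SCML2, 17.0 at LCOR, whose locus encodes a PRC2 accessory protein, and 1.60 at RBBP4, a histone-binding subunit of PRC2. The summits compared spread over 891 bp at SCML2 and 651 bp at LCOR, so the values there come from different places. The median over the 27 was 2.38 points, beside 0.878 over all protein-coding genes. The summit count was higher at 3 (RBBP7, PHF1 and LCOR) and lower at 2 (YAF2 and ASXL3), beside 3.54% and 3.92% of protein-coding genes. Gained loci lay in the windows of 2 of the 33 genes, AEBP2 and PCGF1, and lost loci in those of 3, RBBP4, ASXL2 and AEBP2, beside 5.87% and 8.21% of protein-coding genes. Both gained ones had a shLUC summit close by, 556 bp away at AEBP2 and 277 bp away at PCGF1, unlike the PHC2 locus. The lost locus in ASXL2 had no shHNRNPU summit within 43127 bp, with percentiles of 9.39 and 49.8 in the shLUC libraries.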

How the data were processed

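ATAC-seq of H1 cells gave 1 list of summits for each of 6 libraries. The authors deposited each summit with a score that, from its layout and values, is the −log10 of the q-value of its peak within that library. Per the labels, the tools were cutadapt, Bowtie2, SAMtools, MACS2 and deepTools and the build hg38; versions and settings are not given in the sources used here. Peaks were called per library, and depth is unknown.

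Groups and repeats came from the sample titles. Scores were turned into percentiles within each library. Locus centres were picked from the highest percentile down, and summits within 250 bp of a centre could not become centres. Presence in a library meant a summit no farther than 250 bp from the centre. A summit lying between neighbouring centres could therefore count in both loci, as happened at JARID2, PHC1, PHC2, CBX2 and BMI1. Gene positions and starts were those of RefSeq GRCh38.p14. A start summit was the strongest within 1000 bp. Groups were called separate when all 4 shHNRNPU values lay on one side of both shLUC values. The grouping was tested on simulated data in which loci lay far apart and their summits close together. Neighbouring loci near each other, as at several starts here, were not simulated.

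The members and the other gene lists were chosen with earlier results of these data known. Named were all 10 genes, their start loci, every lost or gained locus, strong loci held by all libraries, and the leading loci of each hairpin. The settings varied were the lowest score (5), the length of the lists, the deposited score in place of the percentile, match distances of 100, 500 and 1000 bp, windows of 0, 10 and 50 kb, absence within 1000 bp, single hairpins and leaving out each library. Sequence of the PHC2 locus was not used here. One marker gene is not reported here. Python 3.11.15, numpy 2.4.6, pandas 2.3.3 and matplotlib 3.10.9 were used.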

Additional observations from a re-analysis of the deposited data

Results flagged for a closer look

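Score percentiles of the start summits and of the loci held by all 4 shHNRNPU libraries, and the share of summits in the windows, were searched for a library far from the other 3. Of 30 values, 4 met Dixon's criterion, where chance gives 1.5 (about 1 in 20). At the SUZ12 start, shHNRNPU #2 repeat 1 stood at 70.6, away from 85.9 to 89.0 in the other 3. At JARID2 start 1, shHNRNPU #2 repeat 2 stood at 85.8, away from 92.3 to 93.2, and the locus 205 bp upstream of that start repeats this value. At the BMI1 locus 495 bp downstream of start 1, shHNRNPU #2 repeat 2 stood at 22.3, away from 38.5 to 41.8. At 0 of 22 values did the hairpins lie on opposite sides of both shLUC libraries.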

How the results depend on the processing

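No paired analysis was possible because the results come from no test that a repeat block could enter; a mean difference over all 6 libraries taken within repeat numbers equals the one reported. The strongest start summit, the match distance of 1000 bp and the recomputation of single genes, starts and loci were added after seeing the data. The PHC2 locus stayed called in every shHNRNPU library kept and in no shLUC library under all settings. Leaving out a library could not have undone this call. With a score of at least 5 there were 1 lost (JARID2) and 3 gained loci (PHC2, CBX2 and BMI1), 2 genes (CBX2 and BMI1) had higher counts, and the JARID2 count difference reversed to -0.25 summits. Lists of one size gave 2 gained loci and 2 genes with higher counts. A match distance of 100 bp gave 1 lost and 2 gained loci, and 500 bp gave 1 start locus higher. Windows of 50 kb held 123 loci and 1 gene (PHC3) with lower counts, and gene bodies alone held 41 loci. The single hairpins gave 2 lost and 5 gained loci (#1) and 4 gained (#2), as fewer libraries must follow the pattern. The strongest start summit gave 1 gene higher. Leaving out each library gave 0 to 4 lost and 1 to 6 gained loci, both highest without shLUC replicate 2. These settings also gave 1 to 2 genes with higher and 0 to 3 with lower counts (3 without shLUC replicate 1). Start loci numbered 0 to 2 higher and 0 to 1 lower. In each of these calls fewer libraries had to follow the pattern. The difference was 1.0 to 7.0 summits per library. JARID2 start 2, PHC2 start 2 and the PHC1 and BMI1 loci kept the groups separate in every setting that gave a value. These sites were picked because the groups were separate there. Leaving out a library cannot undo a full separation, and the match distance does not enter the start values, so most settings could not have failed. Of 203 recomputed values, 164 stayed within their limits. Unknown depth limits any statement on absence.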
